A study of Mus musculus with 6 samples.

Results

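The light chain V segments are the germline gene segments Igkv (kappa) and Iglv (lambda), which encode the variable part of antibody light chains. Every gene of the deposited table whose name begins with Igkv or Iglv and whose count, summed over the 6 libraries, was at least 30 was included. The rule kept 97 segments, 94 kappa and 3 lambda, of 113 light chain V genes and of 32000 genes in the table. The 16 genes left out held 0.0762% of all light chain V counts. The summed counts chose the segments, so their size is a description and supports nothing. They ran between 37 and 16351 with a median of 1073, and 52 segments had at least 1000. Just inside the minimum lay Igkv4-54, with 37 counts (4, 22 and 7 in HFD 2, HFD 3 and HFD 4, against 0, 2 and 2 in CD 1, CD 2 and CD 4), and Igkv5-37, with 45. Just outside lay Igkv4-92, with 28, and the pseudogene Igkv4-73, with 26.

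A developing B cell joins 1 V segment to a short J segment in its kappa or lambda locus, and the joined exon is spliced to a constant gene (Igkc, or one of the Iglc genes) in the light chain mRNA. A B cell clone keeps its joined V segment in its daughter cells, and antibody-secreting plasma cells, many of which live in the bone marrow, transcribe it at a very high rate. The share of light chain V counts on a segment therefore weighs cells by their antibody mRNA. In mice most light chains are kappa.

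Bulk RNA sequencing was done on bone of male C57BL/6J mice aged 18 months. There were 3 libraries after a 12-month high fat diet (HFD 2, HFD 3 and HFD 4). Another 3 followed a 12-month control diet (CD 1, CD 2 and CD 4), which the labels call a chewing diet. The material is described as cortical bone and, in the paper's results, as bone particles. The published sequencing methods instead name marrow cells from femurs and tibias, so how much marrow the libraries held is not settled. Poly(A)-selected RNA was sequenced, and the deposited counts total 54.5 to 61.6 M per library. The labels do not say whether each library came from a separate mouse, so p-values measure the spread between libraries, which may be technical. Values of a group are listed by replicate number (2, 3 and 4 in HFD, 1, 2 and 4 in CD).

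The libraries differed in what else they held. Of 16 intestinal epithelium markers, 8 had a count of 0 in CD 1 and 8 in CD 2, whereas none was at 0 in the other 4 libraries. Muc2, the main intestinal mucin, had 2336, 2418 and 2437 counts in the HFD libraries, against 4, 11 and 2130 in the CD libraries. Intestinal wall also holds plasma cells. The summed level of the 16 markers was 293 to 505 CPM (counts per 1000000 counts of a library) in HFD and 34.9 to 221 CPM in CD, and the groups did not overlap. Car1, which red cell precursors also make, was the most abundant, with 5636, 16790 and 5096 counts in HFD, against 1667, 5133 and 2596 in CD. The 12 markers of osteoblasts and osteocytes, the cells expected in cortical bone, summed to 1982 to 6328 CPM in HFD and 4222 to 70616 CPM in CD, and those of skeletal muscle to 9046 to 44154 CPM in HFD and 16959 to 65782 CPM in CD. Because 14 of the 16 intestinal markers had under 50 counts in CD 1 and in CD 2, the main values are also given without them. The part of these tissues in the light chain V counts was not tested.

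All 97 segments are annotated in GENCODE M21 (GRCm38) at the coordinates of the table, each with a leader exon and a V exon, and 2 of them (Igkv4-77 and Igkv2-116) as pseudogenes. The V exons are 294 to 324 bases long, and usage was taken from counts with no length correction. Counts are per gene, and 52 of the 97 segments also have an annotated untranslated region, so the countable length may differ more than the V exons do. The sequences shown first are the last 60 bases of the V exon of the segment ranked first in each library, in the order of the libraries, since a different segment led in each. Capitals mark the codon of the conserved cysteine that closes framework 3. The bases after it are the germline start of CDR3, the loop of the light chain that is most variable in contact with antigen. The codon was found on the coding strand as TGT or TGC after TAT or TAC and any 3 bases, a pattern present in these last 60 bases of 96 of the 97 segments (98.97%).
Igkv1-117 (HFD 2, chr6:68121768-68121827, plus strand): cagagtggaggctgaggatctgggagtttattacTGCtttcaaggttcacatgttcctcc
Igkv5-48 (HFD 3, chr6:69726573-69726632, minus strand): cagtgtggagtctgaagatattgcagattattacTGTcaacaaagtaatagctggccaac
Igkv6-20 (HFD 4, chr6:70335841-70335900, minus strand): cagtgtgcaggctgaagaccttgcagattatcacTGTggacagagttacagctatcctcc
Iglv1 (CD 1, chr16:19085017-19085076, minus strand): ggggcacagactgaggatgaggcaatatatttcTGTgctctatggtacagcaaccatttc
Igkv10-96 (CD 2, chr6:68631963-68632022, minus strand): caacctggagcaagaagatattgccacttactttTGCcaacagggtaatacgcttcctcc
Igkv1-110 (CD 4, chr6:68271208-68271267, plus strand): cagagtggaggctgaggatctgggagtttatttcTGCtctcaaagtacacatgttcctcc

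In each kappa segment 23 bases follow the cysteine codon, against 24 in Iglv1. Igkv1-117 and Igkv1-110 share 96.81% of their V exon bases (10 mismatches in 313). Many segments have a close copy. For 49 of the 97 the nearest other segment was at least 95% identical over the V exon, and the closest pair, Igkv5-43 and Igkv5-45, differed at 3 of 298 bases (98.99%). Reads of such pairs may be split between them, so the values of a single segment with a close copy are uncertain.

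Each library had a different leading segment. Igkv1-117 took 17.1% of the light chain V counts of HFD 2, Igkv5-48 took 12.2% in HFD 3 and Igkv6-20 took 15.3% in HFD 4. In the CD libraries Iglv1 took 35.9% of CD 1, Igkv10-96 took 7.27% of CD 2 and Igkv1-110 took 5.83% of CD 4. The 6 lists of the 10 most used segments held 29 different segments, of which 13 were in the list of 1 library only and 1 was in all 6. The share of the leading segment averaged 14.9% ± 2.48 in HFD and 16.3% ± 17.0 in CD (SD, n = 3 each), a difference far smaller than the spread in CD (exact two-sided permutation p = 1, BH-adjusted over 5 single-value tests 1). The smallest p that 3 against 3 libraries allow is 0.1.

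**Figure D1:**
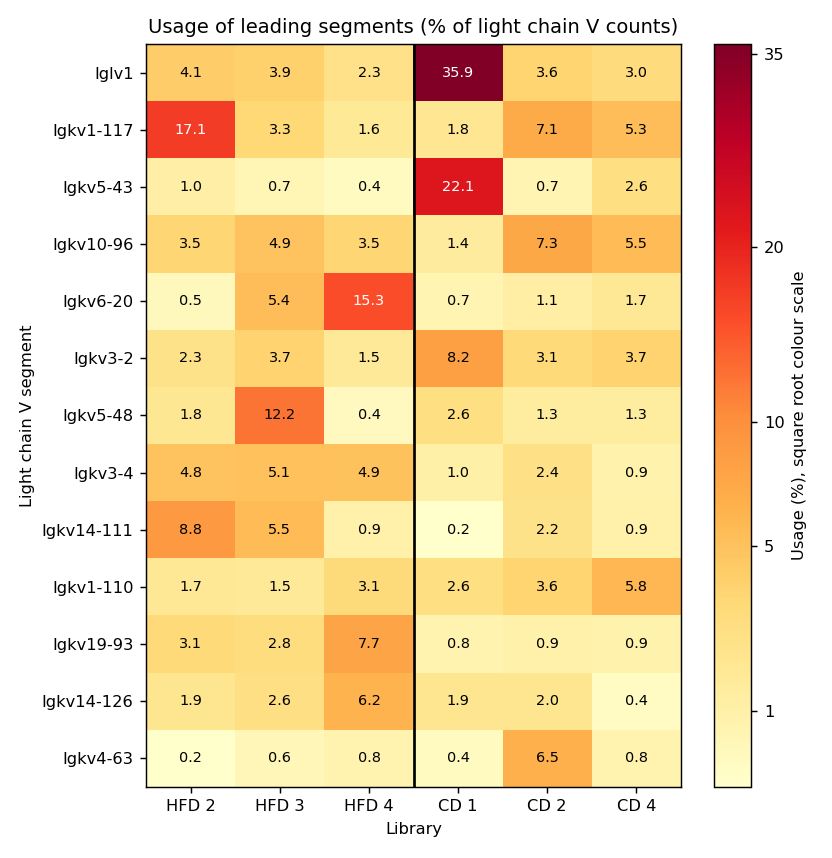
Usage (percent of the light chain V counts of a library, written in each cell and coloured on a square root scale) of 13 segments, rows in the order of mean usage, with the HFD libraries left of the line and the CD libraries right of it. The highest cells lie in different rows in different libraries, with Iglv1 at 35.9% and Igkv5-43 at 22.1% in CD 1, Igkv1-117 at 17.1% in HFD 2 and Igkv6-20 at 15.3% in HFD 4.

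Several leading segments were uneven over the libraries. Igkv5-48 had 643, 12144 and 106 counts in the HFD libraries, against 631, 472 and 141 in the CD libraries, so HFD 3 held 85.9% of its summed count. Igkv6-20 had 165, 5366 and 4087 counts in HFD, against 182, 408 and 186 in CD, high in HFD 3 and HFD 4 but lowest of all in HFD 2. Its nearest copy, Igkv6-29, is 98.32% identical. Igkv1-117 had 6140, 3290 and 434 counts in HFD, against 444, 2547 and 586 in CD. Its groups overlapped, since HFD 4 was below all 3 CD libraries.

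Other segments had a high mean usage. Igkv1-110 had at most 27.6% of its count in 1 library, the lowest such share of the 6 first-ranked segments, with 625, 1540 and 815 counts in HFD, against 643, 1305 and 644 in CD. Its usage was 1.55% to 3.05% in HFD and 2.63% to 5.83% in CD. Igkv10-96 had 1271, 4876 and 947 counts in HFD, against 344, 2600 and 609 in CD. Igkv3-2 had 821, 3649 and 412 counts in HFD, against 2004, 1121 and 411 in CD. In all 3 of these the groups overlapped. Over the whole set, 72 segments were counted in all 6 libraries, and 40 had over 50% of their summed count in 1 library, which was HFD 3 for 25 of them. HFD 3 held 42.6% of all light chain V counts. In usage, which weights the libraries equally, 29 segments had over 50% of their summed value in 1 library, 3 of them in HFD 3.

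In CD 1 the second segment was Igkv5-43, with 5400 counts there and 263 and 291 in CD 2 and CD 4, against 376, 676 and 103 in the HFD libraries. Its fitted log2 fold change (HFD over CD, edgeR) was -3.13 ± 1.40 (SE) and became 0.32 without CD 1. Igkv5-45, its closest copy, had 562 counts in CD 1. Its count was 20.2%, 22.04% and 14.6% of that of Igkv5-43 in HFD, against 10.4%, 19.0% and 0% in CD. Igkv5-43 ends its V exon as follows (chr6:69823355-69823414, minus strand, same capitals), and Igkv5-48, the leading segment of HFD 3, matches it at 84.9% of the 298 V exon bases.
Igkv5-43: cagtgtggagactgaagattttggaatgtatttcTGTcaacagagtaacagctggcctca

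The libraries shared between 30.6% and 64.7% of their usage, taken as the sum over segments of the smaller of the 2 libraries' percentages. Pairs of HFD libraries shared 50.3% to 62.9%, pairs of an HFD and a CD library 30.6% to 60.8%, and pairs of CD libraries 35.3% to 64.7%. The 5 pairs with CD 1 were the 5 lowest, at 30.6% to 35.6%. CD 2 and CD 4 formed the pair with the highest overlap. Rank correlations between libraries across the 97 segments were 0.62 to 0.80, given as a description because segments are not independent and all libraries share the same segment-specific counting.

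The lambda locus has few V segments in laboratory mice, and Iglv1 is mostly joined to Iglj1 with Iglc1 or to Iglj3 with Iglc3, whereas Iglv2 is usually joined to Iglj2 and Iglc2. Iglv1 had 1463, 3873 and 617 counts in HFD, against 8775, 1296 and 327 in CD. The constant gene Iglc1 had 1790, 3596 and 598 counts in HFD, against 7266, 1236 and 422 in CD, and the joining segment Iglj1 had 161, 379 and 63 in HFD, against 891, 147 and 37 in CD. All 3 genes of this set were highest in CD 1. The other lambda genes were low in that library. Iglv2 had 500, 1588 and 122 counts in HFD, against 49, 433 and 48 in CD, and Iglc2 had 1882, 4925 and 1116 in HFD, against 200, 1318 and 352 in CD. Iglv3 had 128, 528 and 296 counts in HFD, against 28, 148 and 68 in CD, and Iglc3 had 797, 2147 and 755 in HFD, against 170, 956 and 151 in CD. CD 1 was the lowest library for Iglv3 and for Iglc2.

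The V exons of Iglv1 and Iglv2 are shown because the counts went apart in CD 1 although the exons differ at only 9 of 305 bases (97.05% identity). Their last 300 bases follow, in which capitals mark the 8 bases that differ.
Iglv1 (chr16:19085017-19085316, minus strand): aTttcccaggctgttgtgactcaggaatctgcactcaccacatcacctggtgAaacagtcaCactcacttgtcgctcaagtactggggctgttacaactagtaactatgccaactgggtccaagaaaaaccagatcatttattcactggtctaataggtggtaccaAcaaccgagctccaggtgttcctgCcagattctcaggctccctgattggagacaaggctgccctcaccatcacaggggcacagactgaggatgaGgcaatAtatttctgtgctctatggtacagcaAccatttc
Iglv2 (chr16:19260401-19260700, minus strand): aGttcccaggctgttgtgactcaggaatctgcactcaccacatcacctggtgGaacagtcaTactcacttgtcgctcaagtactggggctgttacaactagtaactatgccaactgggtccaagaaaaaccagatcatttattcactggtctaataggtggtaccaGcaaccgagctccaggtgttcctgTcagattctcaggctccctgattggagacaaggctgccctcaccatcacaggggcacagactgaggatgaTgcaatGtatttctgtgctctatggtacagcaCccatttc

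The lambda share of light chain V counts was 5.83%, 6.02% and 3.87% in HFD, against 36.2%, 5.25% and 4.01% in CD. The 95% Wilson interval for CD 1 was 35.6% to 36.8%, which covers counting error only. Means were 5.24% ± 1.19 in HFD and 15.2% ± 18.2 in CD (SD, n = 3 each), a difference of -9.92 percentage points that did not exceed the spread in CD (exact two-sided permutation p = 0.8, BH-adjusted 1). Without CD 1 it was 0.61 points and without CD 1 and CD 2 it was 1.23 points, so its direction rested on CD 1. The lambda share of the constant genes (Iglc1 to Iglc3 over these and Igkc), a readout added after seeing the data, was 5.44%, 4.96% and 5.08% in HFD, against 20.4%, 4.50% and 3.92% in CD.

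**Figure D2:**
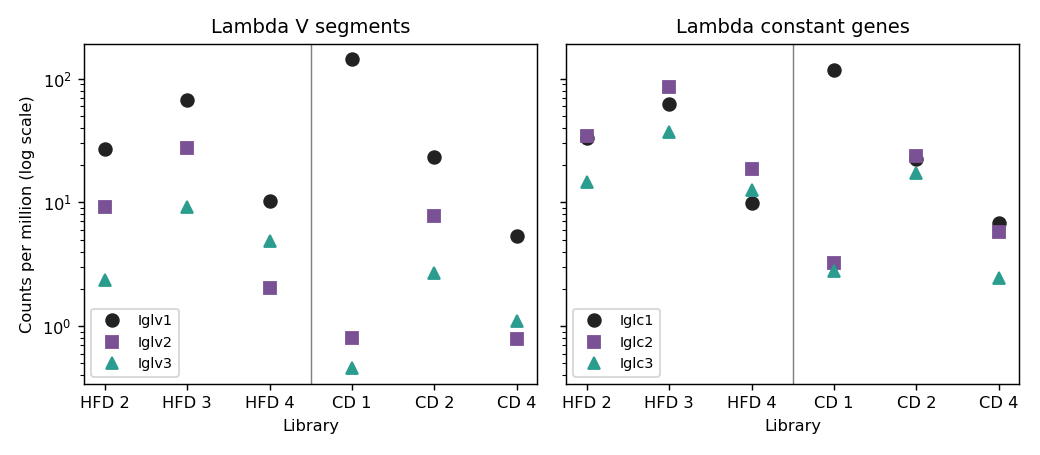
Level (CPM, logarithmic axis) of the lambda V segments Iglv1, Iglv2 and Iglv3 (left) and of the lambda constant genes Iglc1, Iglc2 and Iglc3 (right), 1 point per gene and library, HFD libraries left of the line. In CD 1 Iglv1 stood at 143 CPM while Iglv2 and Iglv3 were at 0.80 and 0.46 CPM.

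Usage was summarised by the effective number of segments, the exponential of the Shannon entropy, which is the number of equally used segments that would be as even. It was 36.7, 38.8 and 34.4 in HFD, against 12.6, 48.1 and 52.6 in CD. CD 1 was the least even library and CD 2 and CD 4 were the most even, with the HFD libraries between them. The means were 36.6 ± 2.23 in HFD and 37.7 ± 21.9 in CD (SD, n = 3 each; exact two-sided permutation p = 1, BH-adjusted 1). Without CD 1 the difference was -13.7 segments, and the HFD and CD libraries no longer overlapped (exact permutation p = 0.1, the smallest that 3 against 2 allow). Without CD 2 it was 4.03 and without CD 4 it was 6.28, so the direction depended on which CD library was left out. Without CD 1 and CD 2 it was -15.9.

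Fewer segments filled the counts where usage was less even. The segments needed for 50% of the light chain V counts were 9, 10 and 8 in HFD, against 2, 12 and 14 in CD. The 10 most used segments of each library held 53.8%, 52.1% and 58.0% of its counts in HFD, against 80.6%, 46.8% and 42.3% in CD. Detection was broad in all libraries, with 94, 95 and 91 segments above 0 in HFD, against 81, 93 and 88 in CD. In a draw of 11050 counts, the light chain V count of CD 4, the expected number was 91.6, 92.9 and 90.3 in HFD, against 80.6, 91.6 and 88.0 in CD.

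The summed level of the 97 segments was 659, 1721 and 442 CPM in HFD, against 398, 645 and 179 CPM in CD. HFD 3 was the highest and CD 4 the lowest, and the groups overlapped. The mean was 940 ± 684 CPM in HFD and 407 ± 233 CPM in CD (SD, n = 3 each), with a difference of 1.15 on the log2 CPM scale (exact two-sided permutation p = 0.2, BH-adjusted 1). Without HFD 3 the difference was 0.59, without CD 4 it was 0.65 and without CD 1 and CD 2 it was 2.15. In edgeR, with the segments summed to 1 feature, the log2 fold change was 0.85 ± 0.58 (adjusted p = 0.668). Igkc, the kappa constant gene, was at 1426, 3533 and 763 CPM in HFD, against 485, 1345 and 368 CPM in CD. The count of kappa V segments per Igkc count stayed close, at 0.435, 0.458 and 0.556 in HFD, against 0.523, 0.455 and 0.468 in CD. In bulk samples fewer B lineage cells and less light chain mRNA per cell cannot be told apart.

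**Figure D3:**
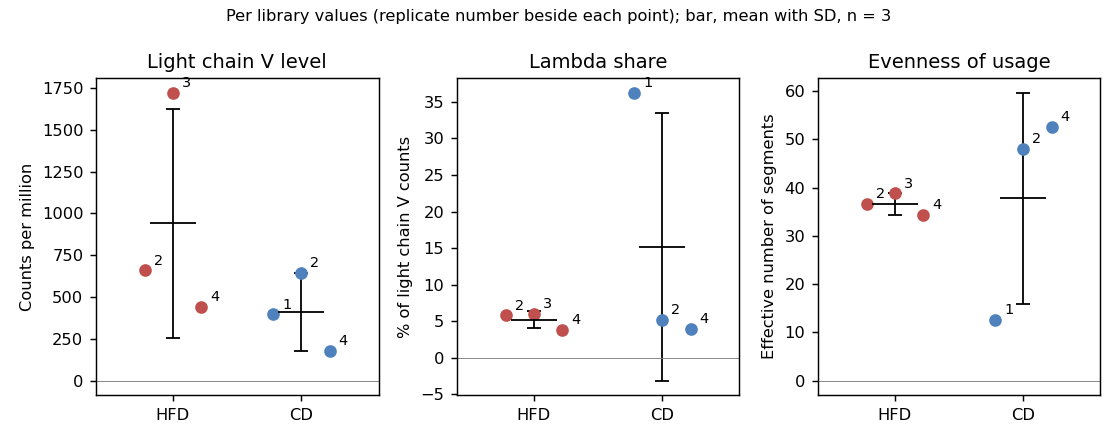
Summed light chain V level (CPM), lambda share (percent of light chain V counts) and effective number of segments, with each library as a point marked by its replicate number, HFD left of CD, and a horizontal bar with whiskers for the mean and SD (n = 3). The CD whisker of the lambda share reaches below 0 because CD 1 (36.2%) stands far from CD 2 (5.25%) and CD 4 (4.01%).

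The kappa segments lie 22.3 to 3170 kb upstream of Igkc on chromosome 6. Of the 94, 37 have the orientation of Igkc and are joined by deletion of the DNA between, and 57 have the opposite one and are joined by inversion. Segments in the orientation of Igkc held 58.7%, 36.7% and 30.7% of the kappa V counts in HFD, against 34.7%, 41.6% and 43.3% in CD (exact two-sided permutation p = 0.9, BH-adjusted 1). HFD 2 was the highest, and Igkv1-117 and Igkv14-111, its 2 most used segments, both have this orientation. The 31 segments farthest from Igkc held 54.6%, 30.7% and 33.6% of the kappa V counts in HFD, against 23.1%, 43.8% and 41.2% in CD. The 32 nearest held 23.5%, 34.5% and 43.6% in HFD, against 60.9%, 30.7% and 35.4% in CD. The groups overlapped in each. Across the 94 segments the rank correlation of usage with distance lay between -0.14 and 0.05 in the 6 libraries, a description across segments that share a locus and a library.

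**Figure D4:**
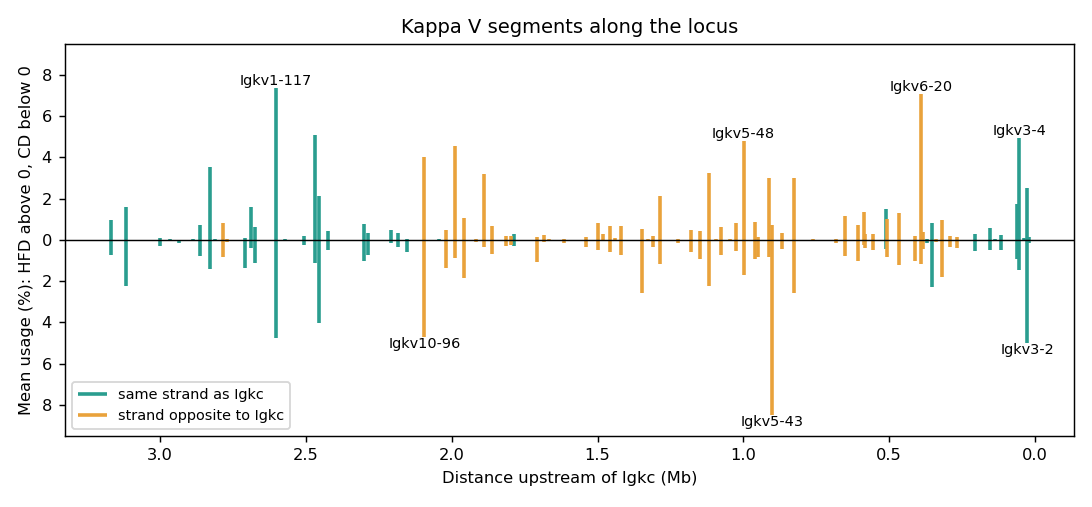
Mean usage (percent of light chain V counts) of each of the 94 kappa segments against its distance upstream of Igkc (Mb), HFD means above 0 and CD means below 0, with colour giving the orientation relative to Igkc. High bars occur at both ends and in the middle of the locus, and Igkv5-43 (CD) and Igkv1-117 (HFD) are among the tallest.

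Segments are grouped into subgroups by the number after Igkv or Iglv, of which the set held 20. Subgroup Igkv4, with 25 segments the largest, took 13.3%, 11.6% and 14.1% in HFD, against 5.34%, 19.8% and 19.95% in CD. Usage of 2 subgroups, both higher in HFD, did not overlap between the groups (10% of the 20, with none lower). Of 15 heavy chain V subgroups, 6.67% were higher and 6.67% lower in this way, so the count is no result about the light chains, and the values of the 2 are given as a description. Igkv14 took 11.7%, 8.16% and 7.34% in HFD, against 2.21%, 4.67% and 1.43% in CD. Its 4 segments did not share 1 profile. Igkv14-111 had 3147, 5491 and 244 counts in HFD, against 46, 784 and 102 in CD, while Igkv14-126 had 678, 2538 and 1655 in HFD, against 458, 709 and 39 in CD. The other subgroup was Igkv19, whose single segment is described next.

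Single segments were compared in 1 edgeR quasi-likelihood fit across all genes, in which 83 of the 97 passed the filter on low counts. Of the 97, 11 reached the summed count of 30 only through HFD libraries and 2 only through CD libraries, so counts over the set are descriptions. No segment passed an adjusted p of 0.05 (smallest adjusted p 0.466), as no gene did (0.0% of 19831 in either direction). At an unadjusted p under 0.05, 13 segments were higher and 2 lower in HFD, against a background of 2.46% higher and 7.2% lower over all genes. The fitted log2 fold changes ran from -3.13 to 4.55 with a median of 0.78, against -0.03 over all genes, and 61 were above 0 and 22 below (47.5% of all genes were above 0). Both the counts and the median moved with single libraries. Without HFD 3 the counts were 9 higher and 4 lower and the median was 0.24, and without CD 2 they were 21 and 3 with a median of 1.51. Without CD 1 the counts were 8 and 4, without CD 4 they were 8 and 2, and without HFD 4 they were 20 and 2. In TMM-scaled CPM, the level after edgeR's scaling for composition, 7 segments were higher in every HFD library than in any CD library and 1 was lower, against 4.97% and 10.2% of all genes.

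Igkv19-93 had 1123, 2793 and 2051 counts in HFD, against 199, 339 and 99 in CD. Its TMM-scaled level was 16.3, 37.8 and 41.0 CPM in HFD, against 5.06, 4.94 and 1.71 CPM in CD, and the lowest HFD library was above the highest CD library. The log2 fold change was 3.02 ± 0.53 (edgeR, adjusted p = 0.466), and 2.72 to 3.34 with each library left out in turn. Within the light chain V counts it took 3.13%, 2.81% and 7.68% in HFD, against 0.814%, 0.948% and 0.896% in CD. It is the single segment of its subgroup, and its nearest neighbour in sequence is 80.54% identical, so splitting of reads with a copy is less of a limit here.

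Igkv12-89 had 621, 4261 and 944 counts in HFD, against 17, 133 and 71 in CD. That is 9.03, 57.7 and 18.8 TMM-scaled CPM in HFD, against 0.432, 1.94 and 1.22 in CD, with a log2 fold change of 4.55 ± 0.85 (edgeR, adjusted p = 0.466), the highest of the tested segments. Its nearest segment is 85.91% identical. Igkv12-44 had 718, 3480 and 951 counts in HFD, against 27, 188 and 200 in CD, a log2 fold change of 3.47 ± 0.76 with the same adjusted p. Both belong to 1 subgroup but share 85.23% of their V exon bases, and Igkv12-44 has a closer copy, Igkv12-41, at 96.31%. The V exons of these 3 segments, which had the smallest edgeR p of those whose groups did not overlap, end as follows, with the cysteine codon in capitals.
Igkv19-93 (chr6:68736297-68736356, minus strand): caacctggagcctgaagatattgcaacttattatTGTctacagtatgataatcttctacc
Igkv12-89 (chr6:68834846-68834905, minus strand): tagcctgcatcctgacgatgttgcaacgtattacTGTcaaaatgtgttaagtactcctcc
Igkv12-44 (chr6:69814631-69814690, minus strand): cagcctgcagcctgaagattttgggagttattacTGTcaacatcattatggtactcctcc

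Igkv3-4 had 1734, 5062 and 1317 counts in HFD, against 249, 861 and 99 in CD (log2 fold change 2.54 ± 0.74). Its usage was close to constant over the HFD libraries, at 4.83%, 5.09% and 4.93%, against 1.02%, 2.41% and 0.896% in CD. Igkv3-5, of the same subgroup and 90.97% identical, had 916, 966 and 442 counts in HFD, against 35, 321 and 199 in CD (1.96 ± 0.57). Igkv3-10 and Igkv8-30 were the other segments whose HFD libraries all lay above the CD libraries in TMM-scaled CPM. Their log2 fold changes were 1.66 ± 0.55 and 0.63 ± 0.31. Igkv3-10 was apart by a narrow margin, at 2.22 CPM in HFD 4 against 2.17 CPM in CD 4. Its counts overlapped, with 111 in HFD 4 against 126 in CD 4. Igkv3-10 is also the closest copy of Igkv3-5, at 98.06% identity, so reads may be split between them. The one in the other direction was Igkv8-21, with 92, 76 and 58 counts in HFD, against 83, 184 and 245 in CD (-1.35 ± 0.41). Its counts overlapped, whereas its TMM-scaled level was at most 1.34 CPM in HFD and at least 2.11 CPM in CD. None of these had an adjusted p under 0.05 in edgeR.

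**Figure D5:**
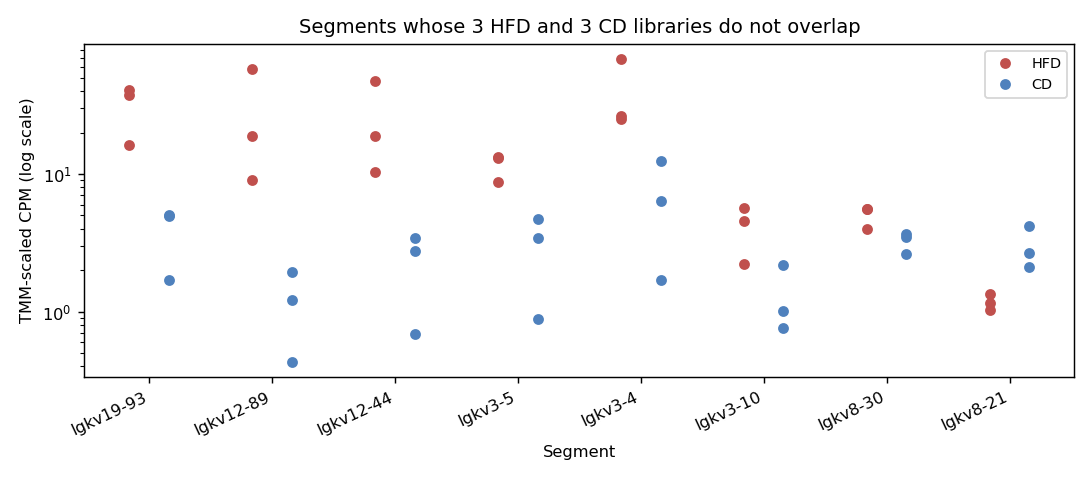
TMM-scaled level (CPM, logarithmic axis) of the 8 segments whose HFD and CD libraries did not overlap, 1 point per library, HFD left of CD within each segment. In 7 segments the level was higher in HFD, with Igkv12-89 at 9.03 to 57.7 in HFD against 0.432 to 1.94 in CD, and Igkv8-21 was lower.

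Other tools gave calls where edgeR gave none. DESeq2 called 8 segments, all higher in HFD, of 93 with an adjusted p (background 0.451% higher and 0.968% lower): Igkv12-89, Igkv19-93, Igkv12-44, Igkv6-20, Igkv3-4, Igkv6-25, Igkv3-5 and Igkv14-111. limma on log2(FPKM + 1) called 3 of 82 tested, all higher, namely Igkv12-89, Igkv19-93 and Igkv12-44 (background 0.0602% higher and 0.00669% lower). The DESeq2 adjusted p was 3.26e-07 for Igkv12-89, 1.09e-05 for Igkv19-93 and 0.00027 for Igkv12-44, and over 13 alternatives the adjusted p of each reached 0.916 at most. The highest value came without HFD 3. Of the 8 segments called by DESeq2, the groups of 3 overlapped, namely Igkv6-20, Igkv14-111 and Igkv6-25. Igkv6-25 had 257, 2696 and 292 counts in HFD, against 41, 263 and 43 in CD, and its edgeR log2 fold change of 3.03 was 1.35 without HFD 3.

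With the light chain V total as library size in edgeR, folds are of usage. In this fit 2 segments were called, both lower in HFD, against 0.0203% of 19716 genes higher and 1.15% lower. They were Igkv5-43 (-3.59, adjusted p = 0.0140) and Igkv1-122 (-4.12, adjusted p = 0.0199). In each, 1 CD library held most of the CD count, CD 1 for Igkv5-43 and CD 4 for Igkv1-122, which had 27, 84 and 19 counts in HFD, against 26, 131 and 394 in CD. In usage, 5 of the 97 segments were higher in all HFD libraries (5.15%) and 4 were lower (4.12%), against 4.3% and 12.9% of the 93 heavy chain V segments. The 5 were Igkv19-93, Igkv12-89, Igkv12-44, Igkv3-4 and Igkv4-59, and the 4 were Igkv8-21, Igkv1-122, Igkv8-34 and Igkv14-130. Igkv8-34 and Igkv14-130 had at most 67 counts in a library.

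The genes that act with the V segments were read from the same fit, and none passed an adjusted p of 0.05. Of the 10 tested light chain constant and joining segments, 8 had a fitted value above 0. In TMM-scaled CPM, 1 of the 10 was higher in every HFD library and 0 lower, against 4.97% and 10.2% of all genes. It was Iglc2 (1.94 ± 0.64), at 22.3 CPM in HFD 4 against 19.2 CPM in CD 2, and its counts overlapped. Surrogate light chain and recombination genes, which act before and during light chain joining in precursor B cells, all had values above 0 (7 of 7). Vpreb3 had 959, 1111 and 411 counts in HFD, against 98, 422 and 195 in CD (1.63 ± 0.42). Rag1, a subunit of the recombinase, had 829, 754 and 376 counts in HFD, against 124, 321 and 451 in CD, and these overlapped. The octamer factor gene Pou2f2 and the coactivator gene Pou2af1, which act at the octamer of immunoglobulin promoters, had log2 fold changes of 1.89 ± 0.56 and 1.16 ± 0.43. Pou2f1, the other octamer factor gene of the list, was at 0.10 ± 0.27, and its groups overlapped.

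Among heavy chain constant genes, Ighm, the mu chain of naive and IgM-secreting cells, was at 1698, 5075 and 1203 CPM in HFD, against 551, 953 and 212 CPM in CD (1.87 ± 0.69, edgeR adjusted p above 0.05). Igha, the alpha chain of IgA that is abundant in intestinal plasma cells, was at 215, 566 and 130 CPM in HFD, against 97.1, 1001 and 393 CPM in CD. The highest Igha level was in CD 2, and the part of intestinal tissue in the Igha levels was not tested. Of 15 B cell markers, 14 had values above 0 (median 1.31), and they summed to 626, 1073 and 446 CPM in HFD, against 88.0, 568 and 164 CPM in CD. Of 13 plasma cell markers, 9 had values above 0 and 4 below (median 0.70), and they summed to 494, 839 and 309 CPM in HFD, against 160, 614 and 383 CPM in CD. In TMM-scaled CPM, 2 of the 13 (Derl3 and Eaf2) lay higher in every HFD library and 3 lower (all genes 4.97% and 10.2%). The 3 were Fkbp11 (-2.04 ± 0.67), Sdc1, the plasma cell surface marker CD138 that other cells also make (-0.96 ± 0.40), and Prdm1, a regulator of plasma cell differentiation (-0.71 ± 0.33). Fkbp11 was apart by a narrow margin, at 4.54 TMM-scaled CPM in HFD 2 against 4.60 in CD 1, and was highest in CD 4, at 30.3. The part of other cells in its level was not tested. At an unadjusted p under 0.05 in edgeR, 1 of the 13 was higher and 2 were lower, against 2.46% and 7.2% of all genes. Of the 15 B cell markers, 6 lay higher in every HFD library in TMM-scaled CPM and 0 lower. At an unadjusted p under 0.05 in edgeR, 7 of these 15 were higher and 0 lower. Jchain, which links IgM and IgA, was at 189, 477 and 127 CPM in HFD, against 36.3, 298 and 112 CPM in CD. HFD 3 was the highest library for the V segments, Igkc, Ighm, Jchain and the summed B cell markers alike, and the part of B lineage content in the differences of single segments was not tested.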

How the data were processed

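RNA of 6 bone libraries (HFD 2, 3 and 4, and CD 1, 2 and 4) was analysed from 1 table of 32000 genes. In it the authors deposited whole-number counts and FPKM values. HISAT2 2.0.4, StringTie 1.3.4d, UMI-tools and cutadapt 1.9 stand in the submitters' processing notes with no roles, whereas the published methods give a different aligner and counter. How the counts were made, and whether strand or molecular identifiers were used, is therefore not settled, and reads of near-identical segments may be split. The segments and the gene lists were chosen with earlier results of these data known.

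Counts of all genes were fitted with edgeR 4.0.16 in R 4.3.3, using TMM scaling, a filterByExpr minimum of 10 and the quasi-likelihood test, and the code was tested on simulated data. Calls were made at an adjusted p of 0.05 (Benjamini-Hochberg over all genes). DESeq2 1.42.0 and limma 3.58.1 on log2(FPKM + 1), restricted to genes reaching 0.5 FPKM in 3 libraries, were alternatives. Others were scaling, filters, the set of segments, a replicate block and libraries left out. Usage was the percent of the segments' summed count in a library. Single values were compared by exact two-sided permutation over libraries. Depth was 54.5 to 61.6 M counts per library, and no 2 libraries of the same group were alike within sampling noise. Pairs of an HFD and a CD library were not checked for this. V exons came from the GENCODE M21 transcripts (GRCm38). The named segments were those with the highest mean usage (10), the highest in each library (3), all lambda segments, up to 5 per direction of those that did not overlap by edgeR p, up to 5 called by DESeq2 or limma, and those nearest the minimum. From each list the most abundant gene and the one with the smallest p were eligible. Rag1, Iglj1, Igha, Sdc1, Prdm1 and Pou2f1, and the segments and genes that complete a count, were named after their values were seen.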

Additional observations from a re-analysis of the deposited data

How the results depend on the processing

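The difference in light chain V level (log2 CPM, HFD minus CD) was above 0 under every alternative run, from 0.59 to 1.57 with each library left out in turn, and the exact test reached p = 0.2 at the least. With TMM-scaled library sizes it was 0.87 (exact two-sided permutation p = 0.5). CD 1, at 621 TMM-scaled CPM, then lay above HFD 2 (521) and HFD 4 (533) but below HFD 3 (1347). With the segments summed to 1 feature edgeR gave 0.85 (adjusted p = 0.668), and 0.74 with a replicate block (adjusted p = 0.517). The lambda share ran from -15.5 to 0.61 percentage points with each library left out, changed sign without CD 1 (0.61) and without CD 1 and CD 2 (1.23), and was -4.45 points on the constant genes. The effective number ran from -13.7 to 6.28 segments, and its sign also changed with usage summed over subgroups (1.92), with the expected number at the smallest count (4.85) and without the segment ranked first in each library (1.65, an alternative added after seeing the data). It was 4.03 without CD 2 and 6.28 without CD 4. Calls numbered 8 with DESeq2, 3 with limma and 2 with the light chain V total as library size, and 0 with each library left out and with the replicate block, where 10 segments were higher and 4 lower at an unadjusted p under 0.05 and the median log2 fold change was 0.14. Iglv1, at -1.52 ± 1.23, turned to 0.64 with the replicate block, 1.24 without CD 1, 2.35 without CD 1 and CD 2 and 0.0011 in limma (-2.29 to 1.24 with each library left out). Igkv5-43 turned to 0.32 without CD 1 and 0.15 without CD 1 and CD 2 (-3.69 to 0.32 with each library left out). Across genes, the deviations from the group mean correlated at -0.16 between HFD 2 and CD 2 and at 0.18 between HFD 4 and CD 4. Pairs of unlike number were not compared, so whether the shared numbers pair the samples is not settled. Without CD 1 and CD 2, CD 4 was assumed to vary like HFD. With the replicate block, CD 1 and HFD 3 had no library of the same number in the other group. The fold changes of that fit therefore came from HFD 2, CD 2, HFD 4 and CD 4. They are not a check apart from leaving CD 1 and HFD 3 out. Where another result moved and no library is named, the cause was not tested. With 3 libraries a group, p cannot fall below 0.1 in the exact test.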

Other observations

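The heavy chain V segments showed the same kind of profile per library. The first-ranked heavy segment was Ighv5-12 in HFD 2 (12.2% of heavy chain V counts), Ighv1-55 in HFD 3 (20.8%) and Ighv14-4 in HFD 4 (18.4%), against Ighv12-3 in CD 1 (35.2%), Ighv6-3 in CD 2 (6.88%) and Ighv3-6 in CD 4 (9.75%). The effective number of heavy segments was 39.7, 34.8 and 32.7 in HFD, against 17.2, 48.2 and 49.4 in CD. CD 1 was thus the least even library for both chains, with Iglv1 and Igkv5-43 leading its light chains. Which heavy and light segments belong to the same cells cannot be told from bulk counts.

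The kappa joining segments were counted at low levels. Igkj5 had 240, 1811 and 194 counts in HFD, against 7, 242 and 135 in CD. Igkj2 had 471, 1311 and 703 counts in HFD, against 508, 773 and 197 in CD. Igkj3, whose mouse segment is known to be non-functional, had 7, 21 and 7 counts in HFD, against 8, 8 and 4 in CD. Of the 2 pseudogenes in the set, Igkv4-77 had 15, 51 and 5 counts in HFD, against 78, 28 and 0 in CD, and Igkv2-116 had 0, 9 and 30 in HFD, against 0, 0 and 11 in CD.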
